A study of Mus musculus with 6 samples.

Results

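The 9 genes described here encode the receptors of the fast excitatory synapse and their partners, measured in the basolateral amygdala, a brain region needed for learned fear. They are the AMPA receptor subunits Gria1, Gria2, Gria3 and Gria4, the transmembrane AMPA receptor regulatory proteins (TARPs) Cacng2, Cacng3, Cacng4 and Cacng8, and the cornichon homologue Cnih2. The members were found by gene symbol, and all 9 of 9 were present among the 26264 symbols counted and among the 14739 that passed the filter on low counts. The CRS group was 3 male mice exposed to chronic restraint, a stress of repeated immobilisation, and the Ctrl group was 3 unstressed male mice. Each mouse gave 1 library of total RNA depleted of ribosomal RNA, and all libraries were sequenced in a shared pool. The labels name the libraries biological replicates and give no genotype; strain, age and duration of stress are not stated in the labels. Both groups shared the tissue, and no transgene or drug is named for either.

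AMPA receptors are tetramers of GluA1 to GluA4, the products of Gria1 to Gria4, and carry most fast glutamate transmission in the brain. GluA2 is particular in that its messenger RNA is edited by the adenosine deaminase ADAR2, the product of Adarb1, at a codon in the pore loop, which makes receptors that hold GluA2 nearly impermeable to calcium. TARPs and cornichons bind the receptor as auxiliary subunits, bring it to the cell surface and slow its closing. TARPs also tether it to the scaffold protein PSD-95 through the last residues of their tails. In the amygdala, movement of AMPA receptors into synapses is a known step of fear learning.

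The edited codon lies in a stretch that the subunits share, and it is shown because the counts below do not separate edited from unedited transcripts. The reference coding sequences, from GENCODE M21 transcripts (GRCm38), are given 5′ to 3′ over 63 bases, with the codon of the editing position in capitals. It is codon 600 of Gria1 (chromosome 11), 607 of Gria2 (chromosome 3), 612 of Gria3 (chromosome X) and 608 of Gria4 (chromosome 9), counted from the start codon.
Gria1: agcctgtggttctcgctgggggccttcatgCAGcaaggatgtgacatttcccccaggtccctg
Gria2: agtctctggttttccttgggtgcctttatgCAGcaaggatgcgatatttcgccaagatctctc
Gria3: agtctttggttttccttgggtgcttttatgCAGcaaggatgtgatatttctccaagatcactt
Gria4: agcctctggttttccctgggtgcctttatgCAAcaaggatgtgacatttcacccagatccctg
Between pairs of subunits, 6 (Gria2 and Gria3) to 14 (Gria1 with Gria2 or Gria3) of the 63 bases differed, and the encoded residues did not differ in any pair. The unedited codon reads glutamine in all 4 genes.

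The tails of the TARPs are the part that binds PSD-95. The last 36 coding bases before the stop codon are given from the same source, with the last 4 codons in capitals. Cacng2 lies on chromosome 15, Cacng3 and Cacng8 on chromosome 7 and Cacng4 on chromosome 11, and Cnih2, which has no such tail, on chromosome 19.
Cacng2: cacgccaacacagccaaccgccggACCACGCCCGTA
Cacng3: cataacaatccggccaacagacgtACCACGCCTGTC
Cacng4: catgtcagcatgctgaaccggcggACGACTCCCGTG
Cacng8: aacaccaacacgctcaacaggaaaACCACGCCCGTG
Pairs of tails differed at 11 to 16 of the 36 bases. Within the capitals they differed at 1 to 4 bases, and 0 of the encoded residues there differed in any pair.

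The libraries held between 9859449 and 10233706 counts in genes, and the 9 members together took 0.277 to 0.307% of them. Markers of the labelled tissue were present in every library: Slc17a7, the vesicular glutamate transporter of cortical-type neurons, was at 719 to 1184 CPM (counts scaled to a common library size), and Rspo2, which marks a class of basolateral principal neurons, at 12.02 to 40.9 CPM. The libraries were not alike in their levels of other markers. The summed level of 10 striatal and central amygdala markers was 239, 654 and 764 CPM in CRS 1 to 3, against 1449, 670 and 852 CPM in Ctrl 1 to 3. The summed level of 8 oligodendrocyte markers was 1745, 2507 and 1973 CPM in CRS, against 3530, 2445 and 2237 CPM in Ctrl. The 8 choroid plexus and ependymal markers spanned 17.97 to 5946 CPM in CRS and 47.0 to 4128 CPM in Ctrl. CRS 1 was therefore the lowest library for all 3 of these lists, and Ctrl 1 was the highest for the striatal and oligodendrocyte lists. No defining marker of these lists was at 0 in all libraries.

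Between stressed and control amygdala the AMPA receptor subunits differed little, and among the 9 genes only Cacng4, the TARP γ-4, had groups that did not overlap. Gria1 to Gria4 had log2 fold changes between -0.00015 and 0.07, and Cacng4 was at -0.59 ± 0.22 (SE). No member passed the threshold: by edgeR's quasi-likelihood test with p adjusted over all genes, 0 of 9 members fell under 0.05, where 0 of 14739 genes (0%) did, and the lowest adjusted p among the members was 0.997. DESeq2, limma-voom and edgeR's likelihood ratio test also called 0 of the 9. At an unadjusted p under 0.05 there was 1 member, Cacng4, lower under CRS, where 2.04% of all tested genes were lower and 1.33% higher at that level. The groups did not overlap for 1 member in the lower direction and 0 in the higher, where 4.48% of all tested genes were lower and 3.8% higher without overlap. The median log2 fold change was 0.05 over the 9 members and -0.0044 over all tested genes. Values are CPM scaled by TMM, computed from the deposited counts, and comparisons are CRS against Ctrl with n = 3 each. These p-values set the group difference against the spread between libraries of a group, each from 1 mouse. That spread includes the differences in marker levels between libraries given above.

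**Figure D1:**
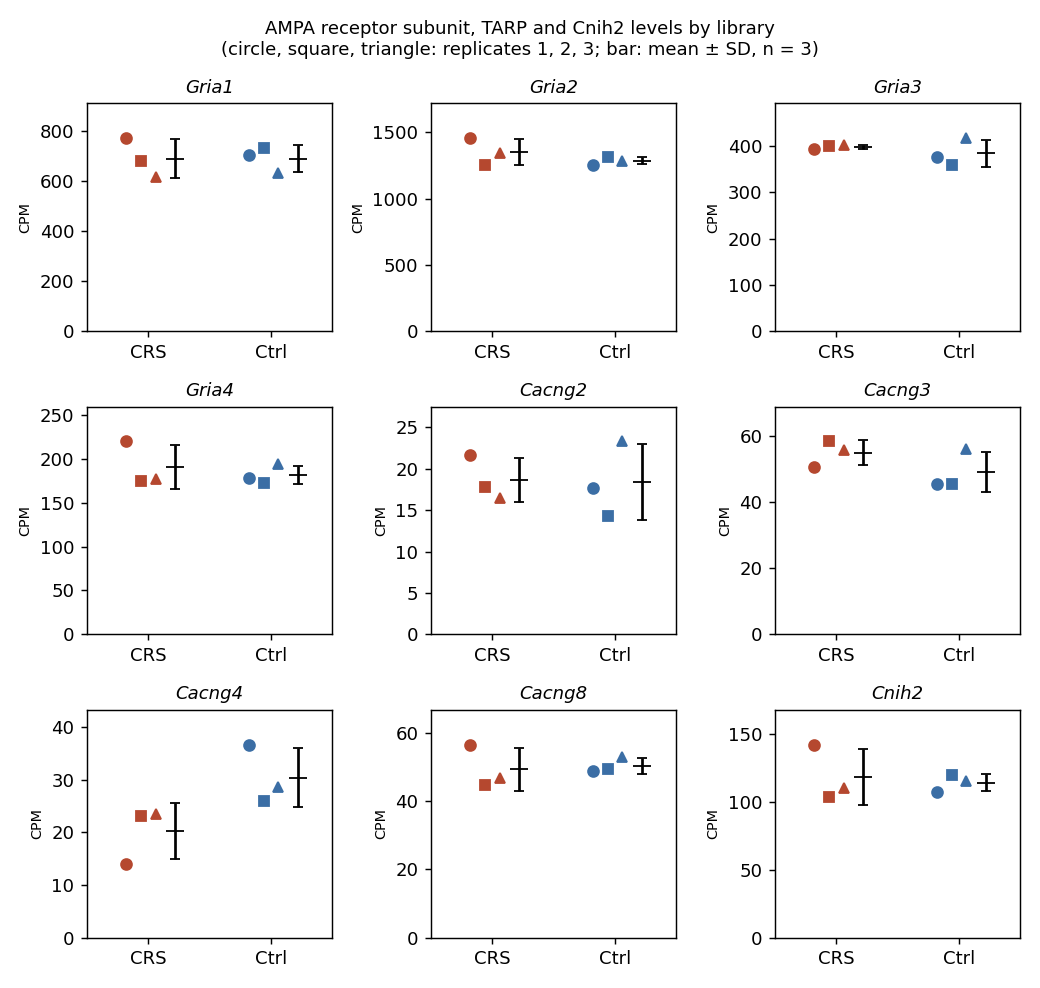
Level of each gene in CPM (vertical axis, from 0) in the 3 CRS libraries (left) and the 3 Ctrl libraries (right); symbols mark the replicate number and bars the mean ± SD. The groups overlap in each panel except that of Cacng4, where CRS 1 is lowest at 14.1 CPM and Ctrl 1 highest at 36.7 CPM. Of all tested genes, 4.48% were lower and 3.8% higher under CRS without overlap.

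The pore-forming subunits came first in CPM, which is not corrected for transcript length. Per kilobase of coding sequence, Cnih2 was above Gria3 and Gria4. Gria1, whose product GluA1 is added to synapses during potentiation, was at 773, 681 and 619 CPM in CRS 1 to 3 and at 707, 733 and 633 CPM in Ctrl 1 to 3. The groups overlapped fully, with means of 691 ± 77.3 CPM in CRS and 691 ± 52.2 CPM in Ctrl (SD, n = 3 each). The 95% interval of its log2 fold change, -0.22 to 0.22, corresponds to 0.856 to 1.17 times the control level. The sign of its fold change turned with the scaling, to 0.0075 with RLE size factors.

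Gria2, the subunit that sets calcium permeability, was at 1457, 1255 and 1345 CPM in CRS and at 1258, 1313 and 1288 CPM in Ctrl. CRS 1 was the highest and CRS 2 the lowest of the 6 libraries, so the CRS group spanned the Ctrl group. Its log2 fold change was 0.07 ± 0.07 (SE, 95% interval -0.10 to 0.24; adjusted p = 0.997, edgeR). The SD was 101 CPM in CRS and 27.5 CPM in Ctrl.

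Gria3, an X-linked subunit that pairs mainly with GluA2, was at 394, 400 and 402 CPM in CRS and at 377, 360 and 417 CPM in Ctrl. The CRS libraries lay close together and inside the range of the Ctrl libraries. The log2 fold change was 0.05 ± 0.07 (-0.11 to 0.22).

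Gria4, which in forebrain is best known from interneurons and glia, was at 220, 174 and 177 CPM in CRS and at 178, 173 and 193 CPM in Ctrl. CRS 1 stood above all other libraries and the remaining CRS libraries lay inside the Ctrl range. The log2 fold change was 0.07 ± 0.10 (-0.16 to 0.30). Without CRS 1 it was -0.04, so its direction rested on that library.

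In the makeup of the subunit pool, the groups overlapped for each of the 4 subunits. Of the counts in Gria1 to Gria4, Gria2 took 51.2, 50.0 and 52.9% in CRS 1 to 3 and 49.9, 50.9 and 50.9% in Ctrl 1 to 3. Gria1 took 27.2, 27.1 and 24.3% in CRS and 28.0, 28.4 and 25.0% in Ctrl. In each group replicate 3 had the smallest Gria1 share. Gria3 averaged 15.2 ± 1.16% in CRS and 15.1 ± 1.28% in Ctrl, and Gria4 7.21 ± 0.443% in CRS and 7.13 ± 0.472% in Ctrl (SD, n = 3 each).

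The differences in share, CRS minus Ctrl, were -0.951 percentage points for Gria1, 0.803 for Gria2, 0.0705 for Gria3 and 0.0776 for Gria4. The Gria2 difference was larger than the SD within Ctrl (0.568) and smaller than that within CRS (1.44), and the other differences were smaller than both SDs. The two-sided exact permutation p was 0.5, 0.4, 1 and 0.9 in that order, and 1 for each after adjustment over the 4 subunits. Without a single library the difference ran from -2.03 (without Ctrl 3) to -0.0123 (without CRS 3) for Gria1 and from 0.0497 (without CRS 3) to 1.49 (without CRS 2) for Gria2. The smallest p that 3 against 3 allows is 0.1, so this comparison could not reach 0.05 and does not show that the shares are equal. Shares of counts weigh a long transcript more than a short one. Per base of the longest annotated transcript, where that of Gria2 is 10371 bases and that of Gria1 5546, the Gria2 share was 35.6 ± 1.31% in CRS and 34.8 ± 0.507% in Ctrl, and the Gria1 share 33.9 ± 1.87% in CRS and 35.0 ± 2.43% in Ctrl. Per base of coding length the Gria2 share was 51.9 ± 1.44% in CRS and 51.1 ± 0.564% in Ctrl. Whether Gria2 is the most abundant subunit by transcripts therefore depended on the length used, while the groups overlapped on both.

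**Figure D2:**
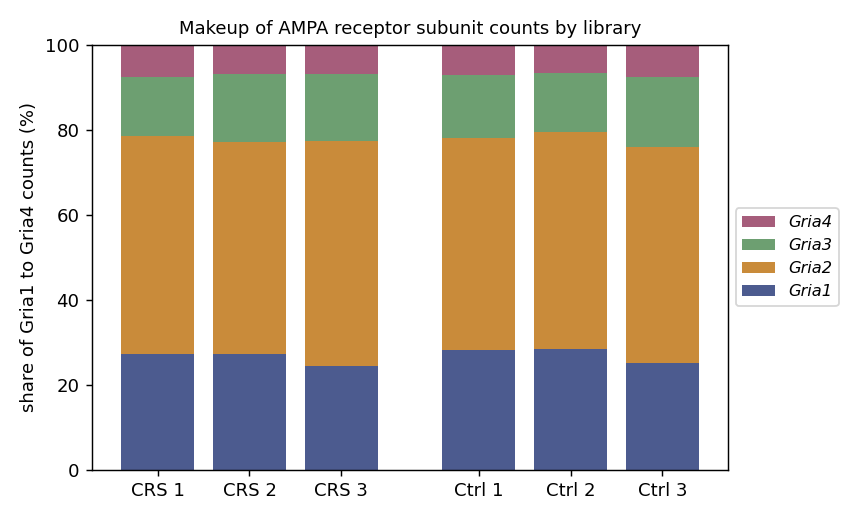
Share of the summed Gria1 to Gria4 counts (vertical axis, percent) that each subunit took in each library, CRS on the left and Ctrl on the right. Gria2 holds between 49.9 and 52.9% of the counts in every library, and the subunits keep their order from library to library.

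Among the TARPs, the groups of Cacng4 did not overlap, though it did not pass the test, and those of the others overlapped. Of all tested genes, 4.48% were lower and 3.8% higher under CRS without overlap. Cacng4, a TARP with broad early expression whose sites in adult brain include the striatum and glia, was at 14.1, 23.2 and 23.4 CPM in CRS 1 to 3 and at 36.7, 26.0 and 28.6 CPM in Ctrl 1 to 3. Every CRS library lay below every Ctrl library, with the gap between CRS 3 and Ctrl 2 at its narrowest. The underlying counts were 137, 230 and 236 in CRS and 369, 268 and 280 in Ctrl. The means were 20.2 ± 5.33 CPM in CRS and 30.4 ± 5.57 CPM in Ctrl (SD, n = 3 each). The fitted level in CRS was 0.665 times that in Ctrl, with a 95% interval from 0.462 to 0.958. Its unadjusted p was 0.0333, and adjusted over all tested genes it was 0.997 (edgeR), between 0.762 and 1.00 over the alternatives, so Cacng4 was not called. With the replicate block, without Ctrl 1 and without both Ctrl 1 and CRS 1, 0 members had an unadjusted p under 0.05. This also held with the striatal, oligodendrocyte or choroid plexus markers as a covariate.

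The lowest and the highest library for Cacng4 were also those for 2 lists of markers of neighbouring tissue. Relative to the Ctrl mean, the mean log2 level of the 10 striatal and central amygdala markers was -2.99, -0.50 and -0.51 in CRS 1 to 3 and 0.63, -0.44 and -0.20 in Ctrl 1 to 3. That of the 8 oligodendrocyte markers was -0.65, -0.10 and -0.41 in CRS and 0.40, -0.13 and -0.27 in Ctrl. CRS 1 was the lowest and Ctrl 1 the highest library for Cacng4 and for both lists. Between these extremes the oligodendrocyte list had another order: CRS 2 was its second highest library, above Ctrl 2 and Ctrl 3, and lay below both for Cacng4. In the mean log2 level of the striatal list, every CRS library lay below every Ctrl library, as for Cacng4. Only CRS 2 and CRS 3, which lay close together, changed places. By summed level, CRS 3 (764 CPM) was above Ctrl 2 (670 CPM) for the striatal list. All 10 of the 10 striatal markers and all 8 of the 8 oligodendrocyte markers had log2 fold changes below 0, with medians of -0.99 and -0.38, and 0 of them passed the threshold over all genes (edgeR; at an unadjusted p under 0.05, 0 and 1 of them). In bulk tissue, fewer cells of a type and less RNA per cell cannot be told apart.

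With the striatal level as a covariate the log2 fold change of Cacng4 was -0.19 ± 0.11, and with the oligodendrocyte level -0.28 ± 0.18. The striatal level was itself lower in every CRS library (at most -0.50) than in every Ctrl library (at least -0.44). That fit therefore cannot fully separate the striatal level from the group. Without Ctrl 1 and CRS 1 together it was -0.23 ± 0.12, without CRS 1 alone -0.38 ± 0.15 and without Ctrl 1 alone -0.43 ± 0.23. It stayed below 0 in all 18 alternatives, by between 0.19 and 0.71. Markers of oligodendrocyte precursors differed less, with a summed level of 256 to 275 CPM in CRS and 253 to 294 CPM in Ctrl (median log2 fold change of 6 markers -0.07). The median was -0.16 for 8 astrocyte, -0.05 for 7 microglia and -0.24 for 6 endothelial markers, of which 0 passed over all genes (edgeR; at an unadjusted p under 0.05, 2, 1 and 0 of them).

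Cacng2, or stargazin, the founding TARP whose loss causes the stargazer phenotype in mice, was at 21.7, 17.8 and 16.5 CPM in CRS and at 17.7, 14.3 and 23.3 CPM in Ctrl. The Ctrl libraries contained both the lowest and the highest value. Its log2 fold change was 0.02 ± 0.19 with an interval of -0.42 to 0.46, and only the interval of Cacng4 was wider.

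Cacng3, the TARP γ-3 of cortical neurons, was at 50.7, 58.3 and 55.7 CPM in CRS and at 45.4, 45.5 and 56.0 CPM in Ctrl. The groups overlapped only through Ctrl 3, which lay above CRS 1 and CRS 3. The log2 fold change was 0.17 ± 0.10 (-0.07 to 0.40; adjusted p = 0.997, edgeR) and it was above 0 in all 18 alternatives, from 0.12 without Ctrl 1 to 0.27 without Ctrl 3.

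Cacng8, the TARP γ-8 that is abundant in hippocampus and cortex, was at 56.6, 44.6 and 46.9 CPM in CRS and at 48.7, 49.4 and 52.8 CPM in Ctrl. CRS 1 was the highest library and the other CRS libraries were the lowest. The log2 fold change was -0.03 ± 0.10 (-0.26 to 0.20).

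Cnih2, which slows receptor closing and is found with TARP γ-8 in hippocampal receptors, was at 142, 103 and 110 CPM in CRS and at 107, 120 and 115 CPM in Ctrl. CRS 1 again stood above every other library. The log2 fold change was 0.05 ± 0.12 (-0.22 to 0.33), and without CRS 1 it was -0.10.

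**Figure D3:**
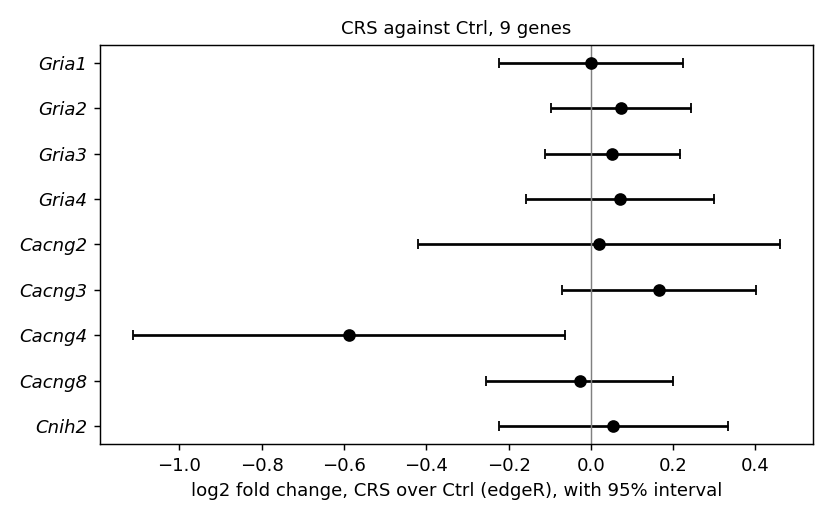
Log2 fold change of CRS over Ctrl (horizontal axis) for each gene with its 95% interval from edgeR's quasi-likelihood fit. The interval includes 0 for 8 of the 9 genes and runs from -1.11 to -0.06 for Cacng4, which was not called after adjustment over all genes.

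CRS 1 was the highest library for 5 of the 9 members, Gria1, Gria2, Gria4, Cacng8 and Cnih2, and the lowest for Cacng4. It was also the highest library for the 8 glutamatergic neuron markers, whose mean log2 level relative to the Ctrl mean was 0.44, -0.04 and 0.09 in CRS 1 to 3 and -0.29, -0.07 and 0.35 in Ctrl 1 to 3. The 8 GABAergic neuron markers were at -0.19, -0.21 and -0.14 in CRS and at 0.16, -0.12 and -0.04 in Ctrl. All 8 of the glutamatergic markers had log2 fold changes above 0 (median 0.17) and 5 of the 8 GABAergic markers below 0 (median -0.13), and 0 in either list passed over all genes (edgeR; 0 at an unadjusted p under 0.05). Without CRS 1, the members split into 3 above and 6 below 0, against 6 above and 3 below with all libraries (7 and 2 with RLE size factors, where Gria1 turned), and their median was -0.09 against 0.05. Without both Ctrl 1 and CRS 1 they split into 2 above and 7 below, with a median of -0.07. Whether tissue makeup had a part in these values was not tested. The fits just given leave out whole libraries, and the neuronal lists were not used as covariates.

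**Figure D4:**
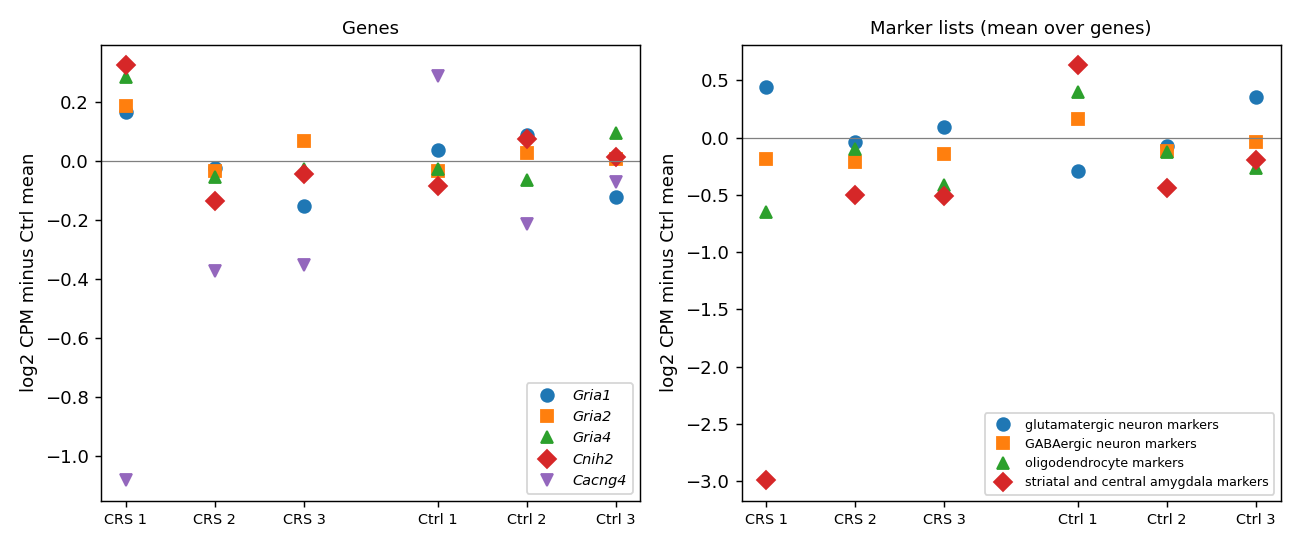
Level in each library as log2 CPM minus the Ctrl mean, CRS on the left and Ctrl on the right of each panel, for 5 genes (left panel) and the mean of 4 marker lists (right panel). CRS 1 is high for Gria2, Gria4 and Cnih2 and for glutamatergic markers (0.44), and low for Cacng4 and for striatal markers (-2.99).

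**Figure D5:**
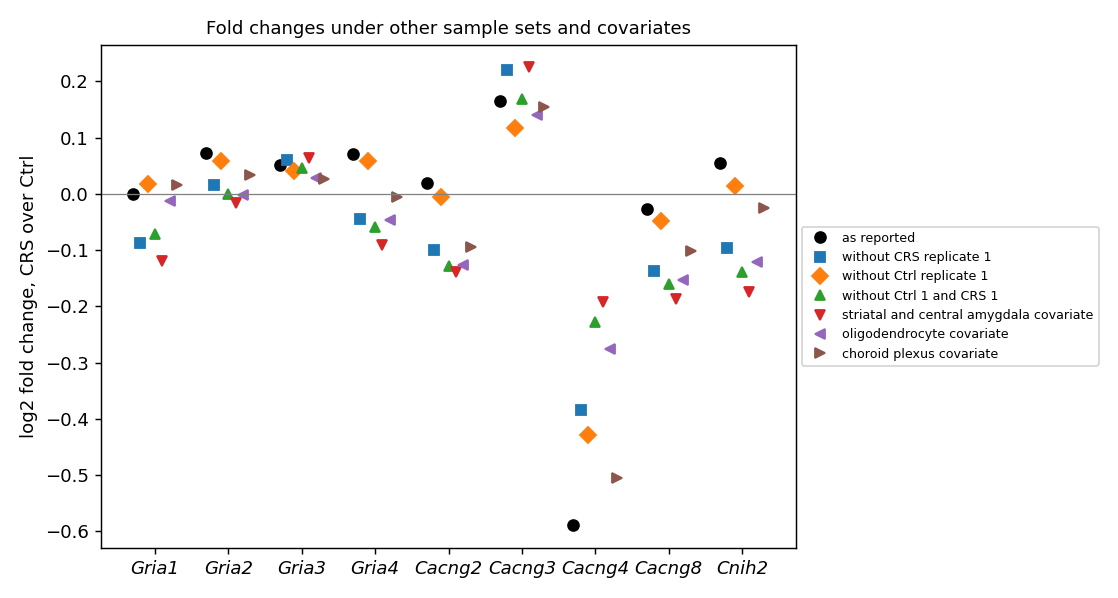
Log2 fold change of CRS over Ctrl (vertical axis) for each gene as reported, without CRS 1, without Ctrl 1 and without both. Also drawn are the fits with the striatal, oligodendrocyte or choroid plexus markers as a covariate. In these fits Cacng4 lies between -0.59 as reported and -0.19 with the striatal covariate, and Gria3 and Cacng3 stay above 0; without 1 of the other libraries, which are not drawn, Cacng4 was between -0.71 and -0.63.

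Levels were set against each other per kilobase of coding sequence. In CRS the order was Gria2 at 511 ± 38.1, Gria1 at 254 ± 28.4, Cnih2 at 247 ± 43.1, Gria3 at 150 ± 1.53, Gria4 at 70.4 ± 9.37, Cacng3 at 58.1 ± 4.08, Cacng8 at 38.9 ± 5.01, Cacng4 at 20.6 ± 5.44 and Cacng2 at 19.3 ± 2.77 CPM per kilobase (SD, n = 3). In Ctrl the order was the same, with Gria2 at 486 ± 10.4 and Cacng2 at 19.0 ± 4.71 CPM per kilobase. Per kilobase of coding sequence, the levels of Gria1 and Cnih2 overlapped in both groups. Those of Cacng4 and Cacng2 overlapped in CRS, where Cacng4 was at 14.3, 23.6 and 23.9 and Cacng2 at 22.4, 18.4 and 17.0 CPM per kilobase. In Ctrl, Cacng4 was above Cacng2 in every library pair, at 37.4, 26.5 and 29.2 against 18.3, 14.7 and 24.1 CPM per kilobase. Per kilobase of the longest transcript, Cacng8 was above Cacng3, at 26.0 ± 3.35 and 19.8 ± 1.39 in CRS and at 26.5 ± 1.17 and 17.6 ± 2.19 CPM per kilobase in Ctrl. The order of these TARPs therefore depended on the length used. By the longest transcript, Gria1 and Cnih2 did not overlap: the lowest Gria1 and highest Cnih2 values were 111.6 and 105.8 in CRS and 114.1 and 89.2 in Ctrl. Cacng4 was then above Cacng2 in CRS too, its lowest value being 4.02 and the highest of Cacng2 3.93.

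The balance of auxiliary to pore-forming subunits was compared as ratios of counts within a library, which need no library size. The 4 TARPs together had 0.0503, 0.0573 and 0.0560 counts for each Gria count in CRS 1 to 3 and 0.0589, 0.0524 and 0.0635 in Ctrl 1 to 3. The groups overlapped, and the difference of the log2 ratio was -0.09 (two-sided exact permutation p = 0.4, adjusted p = 0.667 over 5 ratios). Cnih2 had 0.0448 ± 0.00459 counts for each Gria count in CRS and 0.0448 ± 0.00200 in Ctrl (log2 difference -0.0055, exact p = 1). Gria2 over the other Gria subunits was 1.06 ± 0.0614 in CRS and 1.02 ± 0.0231 in Ctrl (log2 difference 0.05, exact p = 0.4). Over the 5 ratios compared, the adjusted p was 0.667 for this one and 1 for Cnih2.

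Against the related ionotropic receptors, the AMPA subunits together had 0.851, 0.983 and 1.03 counts for each NMDA receptor count in CRS 1 to 3, and 1.17, 1.11 and 0.926 in Ctrl 1 to 3. CRS 1 was the lowest and Ctrl 1 the highest library, and Ctrl 3 lay inside the CRS range. The log2 difference was -0.16 (exact p = 0.3, adjusted p = 0.667 over 5 ratios), and without a single library it ran from -0.26 to -0.08. Without both CRS 1 and Ctrl 1 it was -0.011 (exact p = 1). Of 6 tested NMDA receptor subunits 5 had fold changes above 0. Grin2b, the subunit with the highest CPM, was at 1714 ± 339 CPM in CRS and 1428 ± 224 CPM in Ctrl (log2 fold change 0.26 ± 0.17), and Grin3a at 0.14 ± 0.09. The fold change of Grin2b was 0.093 without CRS 1 and 0.0012 without both CRS 1 and Ctrl 1. Over kainate receptor subunits the AMPA subunits had 5.37 ± 0.143 counts in CRS and 5.39 ± 0.638 in Ctrl (exact p = 1, adjusted p = 1 over 5 ratios). Among 5 kainate subunits Grik1 was at 43.7 ± 7.85 CPM in CRS and 33.7 ± 2.84 CPM in Ctrl (log2 fold change 0.37 ± 0.14, unadjusted p = 0.0262, adjusted p = 0.997, edgeR), and Grik2 was at -0.08 ± 0.09.

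The genes that build, place and modify AMPA receptors were read from the same fit, and 0 of them passed over all tested genes (lowest adjusted p = 0.997, edgeR). Of 9 tested other auxiliary subunits, 5 were above and 4 below 0, their median being 0.0028 on the log2 scale, and 0 had an unadjusted p under 0.05. They included Cacng7, a TARP of the second class, at 0.14 ± 0.09, Cnih3, a second cornichon of AMPA receptors, at 0.16 ± 0.11, and Shisa7, with the highest CPM, at -0.02 ± 0.10. Of 6 genes for assembly in the endoplasmic reticulum, 5 were above 0 (median 0.06), among them Abhd6, whose product binds the subunits and limits their delivery, at 0.20 ± 0.10, the acyltransferase gene Porcn at 0.11 ± 0.07 and Frrs1l, which drives assembly, at 0.03 ± 0.09. The groups did not overlap for Porcn, at 57.0, 54.0 and 55.8 CPM in CRS and 49.1, 52.4 and 53.4 CPM in Ctrl (unadjusted p = 0.149, adjusted p = 0.997, edgeR), where 3.8% of all tested genes were higher without overlap.

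Of 19 genes for trafficking and anchoring, 11 were above and 8 below 0 (median 0.02). At an unadjusted p under 0.05 there was 1, Grip2, a PDZ protein that binds the tails of GluA2 and GluA3, where 2.04% of all tested genes were lower at that level. It was at 15.7, 19.4 and 18.9 CPM in CRS and at 23.1, 20.5 and 23.4 CPM in Ctrl, so the groups did not overlap (log2 fold change -0.31 ± 0.11, unadjusted p = 0.0254, adjusted p = 0.997, edgeR). The groups also did not overlap for Akap5, an anchoring protein for kinases and calcineurin that was picked out after its values were seen, at 223, 237 and 238 CPM in CRS and 259, 239.7 and 250.5 CPM in Ctrl (-0.10 ± 0.06, unadjusted p = 0.139, adjusted p = 0.997, edgeR). These were 2 of the 19 genes, where 4.48% of all tested genes were lower without overlap. Nsf, the ATPase that binds GluA2, was at 0.13 ± 0.08 and the scaffold gene Dlg3 at 0.11 ± 0.07. Of 10 extracellular organisers 7 were above 0 (median 0.05). Olfm3, an olfactomedin, was at 62.8 ± 5.70 CPM in CRS and 75.2 ± 6.24 CPM in Ctrl (-0.26 ± 0.09, unadjusted p = 0.0223, adjusted p = 0.997, edgeR), with overlapping groups. The leucine-rich repeat gene Lrrtm1 was at 0.34 ± 0.20, at 0.099 without CRS 1 and at 0.00038 without both CRS 1 and Ctrl 1. The pentraxin receptor Nptxr was at 0.05 ± 0.18.

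Of 12 kinases and phosphatases that act on the receptor, 5 were above and 7 below 0 (median -0.0060) and 0 had an unadjusted p under 0.05. Ppp3ca, a catalytic subunit of calcineurin, was at -0.16 ± 0.08, and Prkcb, a protein kinase C with the highest CPM of the list, at -0.04 ± 0.15. The editing enzymes were close to 0, with Adar at 0.01 ± 0.06 and Adarb2, a brain homologue, at 0.01 ± 0.13, both of which turned below 0 with library size alone. Adarb1, the enzyme of the Gria2 site, was named for that role and stood at 197 ± 36.1 CPM in CRS and 199 ± 7.72 CPM in Ctrl.

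The genes whose profile over the 6 libraries lay nearest to each subunit were found among 10238 genes with a mean of at least 10 CPM, by the root mean square difference of centred log2 CPM. For Gria1 they were Bax at 0.0198 and Ccdc30 at 0.0277, for Gria2 Ppp2r5c at 0.0179 and Ss18l1 at 0.0181, for Gria3 Cabin1 at 0.0168 and Lnpep at 0.0184, and for Gria4 Arrdc4 at 0.0131 and Fxyd6 at 0.0174. The subunits themselves varied by an SD of 0.123, 0.0805, 0.0760 and 0.133 log2 units in the same order. The search was not run for other genes, so how near a profile would lie for any gene of small spread was not measured. With 6 libraries and so many genes, these values describe likeness in these libraries only.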

How the data were processed

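Each library came as a table of raw, unnormalized counts by gene symbol, as the authors deposited it. The submitters' processing notes list STAR 2.7.7a, HTSeq 0.13.5, FastQC 0.12.1, the genome build mm39 and edgeR 3.42.4 without saying what each did. Neither the annotation nor the strand setting is given in the sources used here, so reads of overlapping or antisense genes cannot be told apart. Libraries held 9859449 to 10233706 counts in genes. Reads assigned to no gene, to several places or ambiguously made up 61.4 to 64.5% and were left out.

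Here, edgeR 4.0.16 (R 4.3.3) kept 14739 of 26264 symbols (filterByExpr, minimum count 10, minimum total 15), scaled by TMM, and ran the quasi-likelihood F test with robust, non-legacy estimation for CRS against Ctrl. P-values were adjusted over all tested genes by Benjamini-Hochberg, with a threshold of 0.05. The biological coefficient of variation was 14.3%. Shares and ratios of raw counts within a library were compared by two-sided exact permutation tests (scipy 1.17.1). Alternatives used DESeq2 1.42.0, limma 3.58.1, other scalings and filters, a replicate block, left-out libraries and marker covariates. The covariates were the striatal, oligodendrocyte and choroid plexus lists, and the neuronal lists were not used as covariates. The procedure was tested on simulated counts.

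Named genes were the 9 members, for each list of related genes the 2 with the smallest unadjusted p and that with the highest CPM, and for each Gria subunit the 2 genes of nearest pattern. A gene that the rule takes from the list of kinases and phosphatases is not reported here. Members, lists and alternatives were chosen with earlier results of these data known. Lengths and sequences came from the GENCODE M21 transcripts (GRCm38), so no coordinates are given. The lowest chi-square per gene between any pair of libraries was 2.95, so none was a repeat of another. That pair was CRS 2 and Ctrl 2, and the lowest value within a group was 4.64, between Ctrl 1 and Ctrl 2.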

Additional observations from a re-analysis of the deposited data

How the results depend on the processing

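No alternative called any of the 9 members. Over all tested genes, DESeq2 called 2 and edgeR's likelihood ratio test 4, and leaving out single libraries gave between 0 and 1 calls, the 1 being without Ctrl 3. Cacng4 stayed below 0 and Gria3 and Cacng3 above 0 under each of the 18 alternatives. Of 665 values recomputed, 590 were classed as kept, 72 turned sign and 3 were the counts just given. For fold changes, kept means the same direction and the same side of the threshold. For shares and ratios it means the same direction alone, since their exact tests could not reach 0.05. For numbers of genes called it means the same number. The values that turned sign, as log2 fold changes, were as follows. Gria1 was at 0.0075 with RLE size factors and with DESeq2, and at 0.0029 without a filter. With library size alone Adar was at -0.0031 and Adarb2 at -0.0068. With the striatal covariate Gria2 was at -0.016, Gria4 at -0.090, Cacng2 at -0.14, Cnih2 at -0.18, Frrs1l at -0.078, Lrrtm1 at -0.037 and Grin2b at -0.0071. With the oligodendrocyte covariate Gria2 was at -0.0027, Gria4 at -0.046, Cacng2 at -0.13, Cnih2 at -0.12, Frrs1l at -0.12, Adar at -0.0097 and Grik2 at 0.021. With the choroid plexus covariate Gria1 was at 0.016, Gria4 at -0.0046, Cacng2 at -0.10, Cnih2 at -0.026, Frrs1l at -0.043, Adar at -0.010 and Adarb2 at -0.038. Without Ctrl 1 and CRS 1 Gria2 was at -0.00017, Gria4 at -0.058, Cacng2 at -0.13, Cnih2 at -0.14, Frrs1l at -0.093 and Grik2 at 0.022, and the Gria4 share differed by -0.213 percentage points. The cause was not tested.

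With single libraries left out, the log2 fold change ran from -0.088 to 0.073 for Gria1, -0.045 to 0.13 for Gria4, -0.13 to 0.22 for Cacng2, -0.14 to 0.044 for Cacng8, -0.10 to 0.15 for Cnih2, -0.12 to 0.049 for Shisa7, -0.033 to 0.12 for Frrs1l, -0.084 to 0.19 for Nptxr, -0.16 to 0.10 for Prkcb, -0.010 to 0.051 for Adar, -0.11 to 0.14 for Adarb2 and -0.13 to 0.022 for Grik2. The share difference ran from -0.525 to 0.745 percentage points for Gria3 and from -0.178 to 0.329 for Gria4. The log2 ratio difference ran from -0.087 to 0.052 for Cnih2 over Gria and from -0.065 to 0.093 for Gria over kainate subunits.

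Whether the replicate numbers pair the samples was not settled. Deviations of same-numbered libraries correlated at -0.32, 0.53 and 0.28. CRS 2 and CRS 3 each correlated best with the Ctrl library of the same number, and CRS 1 with Ctrl 3 (0.48). With the replicate block 0 members and 0 of all genes were called, and Cacng4 was at -0.60 ± 0.27. The share per coding length was added after seeing the data and changed no direction. Depth limits Cacng4 and Cacng2 most, with 137 to 369 and 147 to 228 counts a library.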
